A study of Mus musculus with 12 samples.

Results

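Hepatocytes of Sox9 fl/+ mice that made the active YAP mutant S127A were set against hepatocytes of wild type mice that made green fluorescent protein (GFP) alone, across all measured genes. The Sox9 fl/+ mice had received AAV2/8-TBG-Cre together with AAV2/8-TBG-YAP S127A-P2A-GFP, and the wild type mice AAV2/8-TBG-GFP. AAV2/8 is an adeno-associated virus that infects liver, TBG is a hepatocyte promoter, and P2A lets 1 transcript yield both YAP S127A and GFP. Mice of both groups were 3 weeks old when the virus was injected behind the eye, and cells were taken 3 weeks later, negative for the bile duct marker Epcam and the leukocyte marker CD45. Each group had 2 libraries, so the comparison set 4 of the 12 libraries of the series against each other, with the spread estimated from all 12. It covered the 10681 of 16116 gene symbols that reached log2 1 in at least 2 of the 12 libraries. The wild type mice received no Cre and no YAP, so the effects of Cre, of the loss of 1 Sox9 allele and of YAP S127A cannot be told apart. Nor can they be told from any other genetic difference between the wild type and Sox9 fl/+ mice. The labels allow sorting on GFP or TdTomato and do not give the gate of each group.

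YAP is a coactivator that the Hippo kinases Mst1/2 and Lats1/2 keep out of the nucleus by phosphorylation, and S127A removes a serine on which that inhibition depends. In the nucleus YAP works mainly through the TEAD DNA-binding factors. In liver, sustained YAP activity is known for driving hepatocyte division, liver enlargement and features of bile duct and progenitor cells, and Sox9 is a transcription factor of those cells.

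All values below are log2 CPM (reads scaled so that library totals are alike) as deposited, given for library 1 and then library 2 of a group. Changes are log2 differences, Sox9 fl/+ with YAP S127A minus wild type with GFP, ± SE. A gene was called at a limma adjusted p under 0.05 (Benjamini-Hochberg, over all 10681 genes). Linear values summed to 939484 and 938683 in the YAP S127A libraries, and to 879620 and 920020 in the GFP libraries. Genes at log2 1 or more numbered 10287 and 10118 in the YAP S127A libraries and 9919 and 10005 in the GFP libraries. The sources used here do not give read depth. Each p weighs a difference against the spread between the libraries of a group, estimated by limma over all 6 groups of the series. The labels do not say whether both libraries of a group are from different animals, so that spread may be technical.

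The core of the TEAD binding motif, GGAATG, was looked up on both strands in the promoters that RefSeq gives for these genes (300 bases that span each start, GRCm38.p6). It was present in 4817 of 32851 promoters of the table (14.7%) and in 1214 of the 8565 compared genes that had a promoter there (14.2%). Among genes called higher, 117 of 150 had a promoter and 26 of these held the motif (22.2%), and among genes called lower it was 3 of 15. These shares describe letters in a window, with no test. The stretches below belong to 5 genes called higher that the results return to, chosen among those that held the motif. They show the motif (capitals, CATTCC where it lies on the other strand) with the bases around it. Each runs 5′ to 3′ along the strand of the gene.
Sox4 (chr13:28953832-28953897, minus strand): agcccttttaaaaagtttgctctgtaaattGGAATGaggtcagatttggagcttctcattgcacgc
Nid1 (chr13:13437407-13437472, plus strand): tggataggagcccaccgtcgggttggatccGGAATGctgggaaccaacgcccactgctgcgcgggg
Ajuba (chr14:54577790-54577877, minus strand): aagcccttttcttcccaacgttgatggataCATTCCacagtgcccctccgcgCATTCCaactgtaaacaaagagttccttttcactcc
Crim1 (chr17:78200139-78200204, plus strand): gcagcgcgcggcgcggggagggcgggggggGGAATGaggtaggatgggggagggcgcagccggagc
Cyr61 (chr3:145650053-145650118, minus strand): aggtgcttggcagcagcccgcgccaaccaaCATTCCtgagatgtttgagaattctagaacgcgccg
Ajuba held 2 copies and the other genes 1 copy each. A second motif, the AP-1 site TGACTCA (its reverse complement TGAGTCA was counted too), was in 8 of the 117 promoters of genes called higher (6.84%), in 0 of the 15 of genes called lower, and in 4.51% of those of all compared genes.

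The targeted genes came first. Sox9 stood at 4.41 and 5.28 in the YAP S127A libraries and at 3.90 and 3.59 in the GFP libraries, a difference of 1.10 ± 0.38 that did not pass (adjusted p = 0.225). Yap1 stood at 7.62 and 7.29 in the YAP S127A libraries and at 6.64 and 6.44 in the GFP libraries, 0.91 ± 0.24 (adjusted p = 0.0755). For both genes the YAP S127A libraries lay above both GFP libraries, yet neither difference was called. The assay reads 1 amplicon per gene, and where it lies is not given here, so Sox9 need not report the deleted allele and Yap1 need not report the transgene. The Yap1 relative Wwtr1 (TAZ) and the Hippo kinase genes Stk3 and Stk4 differed by -0.13, -0.46 and -0.18, and none was called.

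In YAP S127A hepatocytes with 1 floxed Sox9 allele, many more genes rose than fell. Members of the lists of mitosis genes (10 of 39), bile duct and progenitor genes (5 of 21), basement membrane genes (4 of 37) and fetal liver genes (5 of 20) rose, and most members of each list were not called. The largest rise was that of the fetal liver proteoglycan Gpc3, with a log2 change of 5.91 that ran from 5.06 to 6.75 with 1 library left out, both GFP values being under log2 1. The falls were few, and among them were Cyp7a1, which sets the rate of bile acid synthesis, and Csad of taurine synthesis. Of 10681 genes, 168 were called (1.57%), 150 higher (1.4%) and 18 lower (0.169%), and 1131 had an unadjusted p under 0.05. The rises ran from 1.02 to 5.91 with a median of 1.99, and the falls from -1.12 to -4.85 with a median of -2.07. In all 168 called genes the 2 groups did not overlap, and 34.2% of all compared genes also met that condition. Over all genes 6235 changes were positive and the median change was 0.07, with a 5th percentile of -0.50 and a 95th of 0.98. The median was -0.05 after quantile normalization and -0.02 with library medians equalised, and rises made up 82.2% and 83% of the calls under those settings, in place of 89.3%.

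**Figure D1:**
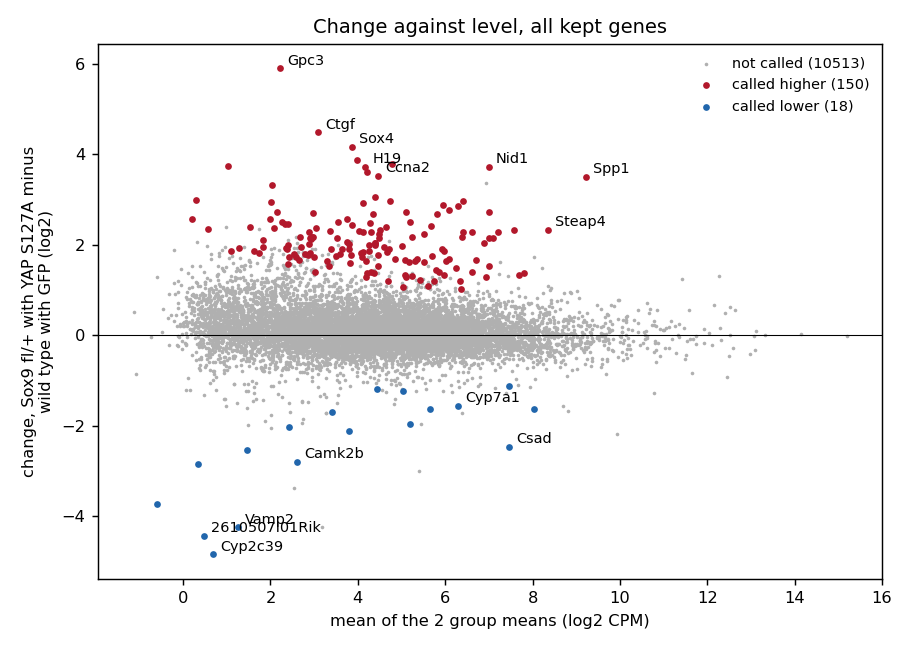
Change (log2, Sox9 fl/+ with YAP S127A minus wild type with GFP) against the mean of the 2 group means (log2 CPM) for each of the 10681 genes. The 150 genes called higher (red) and the 18 called lower (blue) are drawn over the genes not called (grey).

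Calls rested on few libraries. With each of the 4 libraries left out in turn, 92 genes were called without library 1 of the GFP group, 131 without its library 2, 121 without library 1 of the YAP S127A group and 291 without its library 2. Calls in all 4 of these fits numbered 53 (47 higher, 6 lower), and below such a gene is said to have held its call.

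Direct YAP and TAZ targets were higher as a list. Of 24 members compared, 5 were called higher and 0 lower, and 22 had positive changes, as did 6235 of all 10681 genes. The median was 1.13 against 0.07 over all genes. Ctgf, a secreted matrix-associated protein and the classical YAP target, stood at 5.19 and 5.48 in the YAP S127A libraries, against 0.58 and 1.11 in the GFP libraries (4.49 ± 0.35, adjusted p = 6.37e-06). That is 22.5-fold, with both YAP S127A libraries within 0.5 of each other. Its relative Cyr61, whose promoter stretch is printed above, stood at 8.70 and 7.11 in the YAP S127A libraries, against 5.85 and 5.90 in the GFP libraries (2.03 ± 0.43, adjusted p = 0.0236). Library 1 was the higher of the pair, and the Cyr61 change was 1.24 without it, where the call was lost. The call was also lost without either GFP library (2.01 and 2.06).

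Cyclin D1 (Ccnd1), which takes cells into the division cycle, stood at 8.16 and 6.80 in the YAP S127A libraries, against 4.88 and 4.54 in the GFP libraries (2.77 ± 0.37, adjusted p = 0.000678). Crim1, a membrane protein that binds bone morphogenetic proteins, stood at 6.81 and 6.86 in the YAP S127A libraries, against 5.43 and 4.94 in the GFP libraries (1.65 ± 0.26, adjusted p = 0.00251). Ajuba, an adaptor that restrains the Lats kinases, stood at 6.27 and 5.73 in the YAP S127A libraries, against 3.92 and 4.13 in the GFP libraries (1.97 ± 0.28, adjusted p = 0.00111). Ccnd1, Crim1, Ajuba and Ctgf held their calls. Other targets were not called. The YAP-binding phosphatase gene Ptpn14 differed by 1.65 (adjusted p = 0.0959), and Nt5e, at 2.98 and 1.83 in the YAP S127A libraries and 2.99 and 5.27 in the GFP libraries, by -1.73 (adjusted p = 0.358). Per library, the median of the list was 1.57 above the GFP mean in library 1 and 0.68 in library 2, and 4 to 9 members were called with 1 library left out.

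Of 23 Hippo kinases, adaptors and TEAD factors on this list, 0 were called by limma (8 at an unadjusted p under 0.05). In 17 the change was positive, as in 6235 of all 10681 genes, and the median was 0.45. The largest differences were those of the TEAD genes Tead2, at 2.79 and 0.90 in the YAP S127A libraries and -0.29 and 0.20 in the GFP libraries (1.89, adjusted p = 0.149), and Tead4 (1.75, adjusted p = 0.131). Library 1 carried more of both differences than library 2, and between 0 and 4 members of the list were called when 1 library was left out. The list did not hold the adaptor gene Ajuba (1.97) or Wwc2 of the Hippo pathway (1.07), which were both called higher. Of 6 Sox factors compared, 1 was called. Sox4, a progenitor transcription factor, stood at 5.23 and 6.65 in the YAP S127A libraries, against 2.07 and 1.49 in the GFP libraries (4.16 ± 0.37, adjusted p = 2.98e-05). It held its call, and unlike Cyr61 it was higher in library 2 than in library 1.

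**Figure D2:**
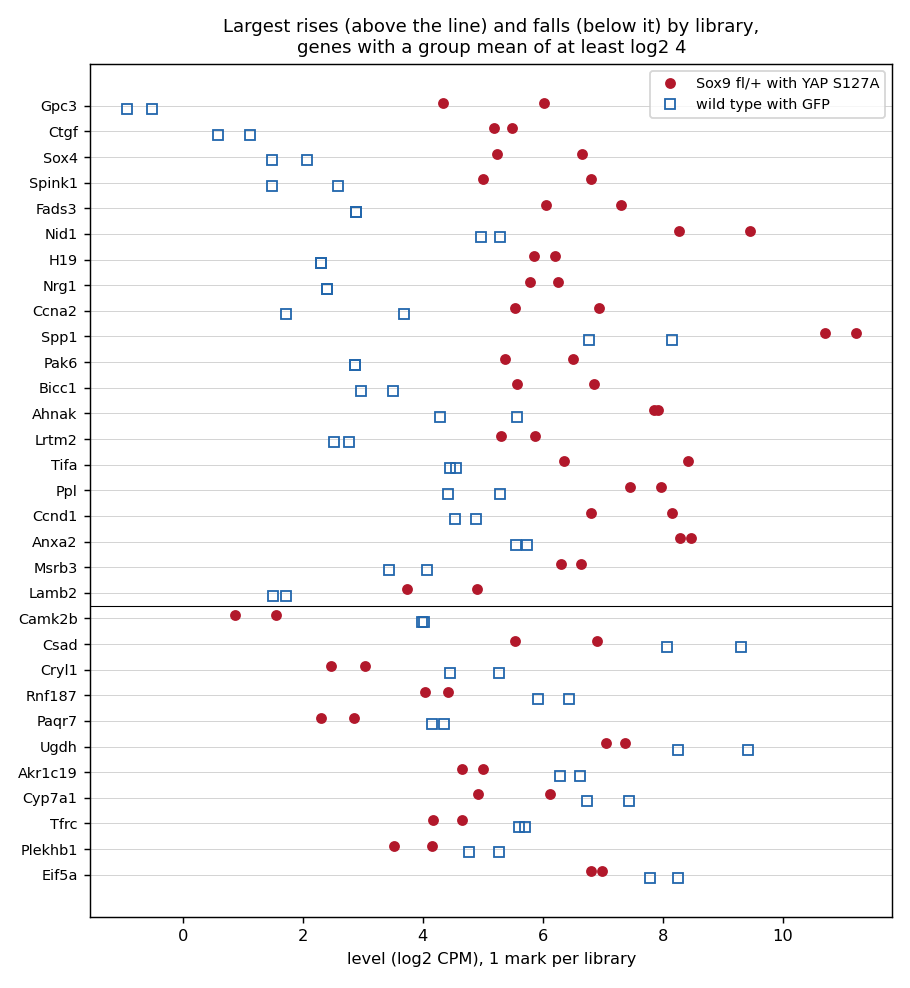
Level (log2 CPM) of the 20 largest rises and of the falls, among called genes with a group mean of at least log2 4, 1 mark per library (red circles, Sox9 fl/+ with YAP S127A, and blue squares, wild type with GFP). Gpc3, at 6.02 and 4.33 in YAP S127A libraries against -0.94 and -0.51 in GFP libraries, is set furthest apart. Only genes without overlap between the groups were chosen for drawing.

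Cell division genes formed the list with the most calls. Of 39 G2/M and mitosis genes 10 were called higher, all 39 had positive changes, and 35 had both YAP S127A libraries above both GFP libraries, against 21.6% of all genes. Their median was 1.44. Cyclin A2 (Ccna2) stood at 6.93 and 5.53 in the YAP S127A libraries, against 1.72 and 3.69 in the GFP libraries (3.52 ± 0.51, adjusted p = 0.00141), and held its call. The anaphase activator gene Cdc20 stood at 6.11 and 5.25 in the YAP S127A libraries, against 1.90 and 4.12 in the GFP libraries (2.67 ± 0.55, adjusted p = 0.0193). Mki67, the Ki-67 proliferation antigen, stood at 5.59 and 5.23 in the YAP S127A libraries, against 2.54 and 4.19 in the GFP libraries (2.04 ± 0.47, adjusted p = 0.0371). In all 3 genes library 2 of the GFP group lay well above library 1. Over the list that gap had a median of 0.76, and the number of called members ranged from 1 to 15 with 1 library left out. Of the other called members, Top2a, which untangles DNA strands, rose by 2.07, the mitotic kinases Plk1 and Cdk1 by 2.01 and 1.91, cyclin B2 (Ccnb2) by 2.01, the kinesin Kif20a by 2.39, and Racgap1 and Anln of the cleavage furrow by 2.50 and 2.17. Plk1, Cdk1 and Ccnb2 were named after their values were seen. All of these called members but Ccna2 lost their calls without library 1 of the YAP S127A group, and all but Ccna2 and Top2a without library 1 of the GFP group.

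DNA replication and G1/S genes moved less. Of 36, 2 were called higher (Ccnd1 and Rrm2, a ribonucleotide reductase subunit, 2.04 ± 0.36, its call lost without library 1 of the YAP S127A group or library 2 of the GFP group), and the median was 0.50. Of 21 cyclin-dependent kinase inhibitors and p53 targets, 2 were called. Cdkn1a (p21) stood at 6.55 and 7.30 in the YAP S127A libraries, against 4.58 and 5.91 in the GFP libraries (1.68 ± 0.38, adjusted p = 0.0367), and Cdkn2c rose by 1.37 ± 0.29 (adjusted p = 0.0224). Both lost their calls without library 1 of either group. The survival gene Bcl2 stood at 2.58 and 2.51 in the YAP S127A libraries, against 0.69 in each GFP library (1.86 ± 0.31, adjusted p = 0.00333).

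Bile duct and progenitor genes rose in part. Of 21 members compared, 5 were called higher and 0 lower, 18 had positive changes, and the median was 0.79. Osteopontin (Spp1), a secreted protein of bile duct cells, stood at 10.71 and 11.22 in the YAP S127A libraries, against 8.16 and 6.78 in the GFP libraries (3.50 ± 0.38, adjusted p = 0.000146). It was the most abundant gene among the rises above 3, and held its call. Epcam stood at 3.14 and 2.14 in the YAP S127A libraries, against 0.83 in each GFP library (1.81 ± 0.41, adjusted p = 0.0349), although cells had been sorted for its absence at the surface. Its call was lost without library 1 of the YAP S127A group (1.31) and without either GFP library. The doublecortin gene Dcdc2a (2.51), the membrane linker ezrin (Ezr, 2.30) and the sodium glucose transporter gene Slc5a1 (1.82) were also called, and of these Ezr held its call. Krt7, Cftr, Sctr and Muc1, which define mature bile duct cells, stayed under log2 1 in all 4 libraries. In linear CPM the cholangiocyte markers summed to 1877.5 and 2500.2 in the YAP S127A libraries and to 353.0 and 159.5 in the GFP libraries. Spp1 alone made up most of each sum, so the sums mainly repeat its rise. Of 6 markers compared, 3 were called (Spp1, Bicc1 and Epcam). In such bulk samples more cells of a type and more RNA per cell cannot be told apart.

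Genes of the primary cilium and of polycystic disease had a median of 0.17, near that of all genes, and -0.05 after quantile normalization. Of 38, 3 were called. Bicc1, an RNA-binding protein whose loss gives cysts, stood at 6.86 and 5.58 in the YAP S127A libraries, against 3.50 and 2.97 in the GFP libraries (2.98 ± 0.37, adjusted p = 0.000494). Pkhd1, the gene of fibrocystin, rose by 1.96 ± 0.31 (adjusted p = 0.00268), and the zinc finger gene Glis2 stood at 4.51 and 2.51 in the YAP S127A libraries, against 0.71 and 0.86 in the GFP libraries (2.73 ± 0.50, adjusted p = 0.00865). Bicc1 and Pkhd1 held their calls, while that of Glis2 was lost without library 1 of either group or library 2 of the GFP group.

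Of 20 fetal liver and liver tumour genes, 5 were called higher, with a median of 0.59. Gpc3, a cell surface heparan sulfate proteoglycan, stood at 6.02 and 4.33 in the YAP S127A libraries, against -0.94 and -0.51 in the GFP libraries (5.91 ± 0.46, adjusted p = 6.37e-06). The imprinted noncoding RNA H19 stood at 5.85 and 6.21 in the YAP S127A libraries, against 2.31 in each GFP library (3.73 ± 0.41, adjusted p = 0.000178). Spink1, a secreted trypsin inhibitor, stood at 6.81 and 5.01 in the YAP S127A libraries, against 2.59 and 1.48 in the GFP libraries (3.87 ± 0.47, adjusted p = 0.000389). These 3 genes held their calls, and Ly6d (1.91) lost its call with any 1 library left out. The rise of H19 was not shared by the other imprinted genes: 1 of 18 was called, and the median of -0.08 changed sign without either GFP library. Igf2, the neighbour of H19, was under log2 1 in all 4 libraries.

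H19 belongs to a set whose 2 GFP values were equal to within 0.005. Such equal values occurred in 334 compared genes, 18 of them called higher and 0 called lower, and in 20 genes 1 value filled all 4 libraries. Fads3, of the fatty acid desaturase family, stood at 7.30 and 6.05 in the YAP S127A libraries, against 2.88 in each GFP library (3.80 ± 0.37, adjusted p = 5.48e-05). The kinase gene Pak6 stood at 5.36 and 6.50 in the YAP S127A libraries, against 2.87 in each GFP library (3.06 ± 0.39, adjusted p = 0.000512). For these genes the GFP group added no spread to the test, and whether the equal values stand for 0 reads is not shown by the table. In 15 of the rises both GFP libraries were under log2 1, among them Gpc3, the aggrecan-cutting protease Adamts5, the keratin Krt4, Lyve1, the adenylyl cyclase Adcy1 and 2 histone genes, Hist1h2ak and Hist1h2bb, that belong to a family of near-identical copies.

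Lists of ligands and receptors had between 0 and 3 calls each. Of 21 genes of the EGF family, its receptors and their feedback inhibitors, 1 was called. Nrg1, a ligand of the ErbB3 and ErbB4 receptors, stood at 5.78 and 6.26 in the YAP S127A libraries, against 2.41 in each GFP library (3.61 ± 0.35, adjusted p = 4.97e-05), and held its call. Of 37 TGF-beta and BMP genes 2 were called, the ligand Bmp4 (2.28 ± 0.41, adjusted p = 0.00715) and the receptor Tgfbr2 (1.34 ± 0.24, adjusted p = 0.00768), with a median of 0.45. In 31 of the 37 the change was positive. Bmp4 stood at 4.48 and 3.55 in the YAP S127A libraries, against 2.21 and 1.26 in the GFP libraries. Its call was lost without library 1 of the YAP S127A group or library 2 of the GFP group, and that of Tgfbr2 without library 1 of the GFP group. Of 13 Notch genes 0 were called by limma (1 at an unadjusted p under 0.05, the ligand Jag1 at 1.26). Of 23 Wnt genes 0 were called by limma (0 at an unadjusted p under 0.05), with a median equal to that of all genes, 0.07. Of 31 ephrin, semaphorin and plexin genes 3 were called and 28 had positive changes, with a median of 0.60. In 16 both YAP S127A libraries lay above both GFP libraries, a condition met by 21.6% of all genes. The called genes were the co-receptors Nrp2 (2.49 ± 0.30, adjusted p = 0.000402) and Nrp1 (1.02 ± 0.25, adjusted p = 0.0491) and the receptor Plxnd1 (1.84 ± 0.37, adjusted p = 0.0151). Of these, Nrp2 held its call.

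Of 37 basement membrane and matrix genes 4 were called higher and 34 had positive changes, with a median of 0.76. The list median lay 1.25 above the GFP mean in library 1 of the YAP S127A group and 0.35 above it in library 2, beside a median gap of 0.36 between the 2 GFP libraries. In 18 of the 37 both YAP S127A libraries lay above both GFP libraries, a condition met by 21.6% of all genes. The list summed to 6033.4 and 3136.9 CPM in the YAP S127A libraries, against 2504 and 2988.6 in the GFP libraries. Nidogen (Nid1), which links laminin to collagen IV and whose promoter stretch is shown above, stood at 9.45 and 8.27 in the YAP S127A libraries, against 4.97 and 5.29 in the GFP libraries (3.73 ± 0.42, adjusted p = 0.000212). The laminin subunit gene Lamb2 stood at 4.90 and 3.73 in the YAP S127A libraries, against 1.5 and 1.71 in the GFP libraries (2.71 ± 0.40, adjusted p = 0.00141). Adamts5 stood at 3.96 and 1.81 in the YAP S127A libraries, against -0.98 and -0.72 in the GFP libraries (3.73 ± 0.55, adjusted p = 0.00155). All 3 had library 1 further from the GFP group and held their calls, and Col4a5 (1.73) lost its call without library 1 of either group. The protease inhibitor gene Timp2, at 4.47 and 1.36 in the YAP S127A libraries and 0.10 and 1.03 in the GFP libraries, was not called (2.35, adjusted p = 0.154).

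Of 43 actin cytoskeleton, integrin and annexin genes 3 were called, with a median of 0.41. The membrane-binding annexin Anxa2 stood at 8.46 and 8.29 in the YAP S127A libraries, against 5.73 and 5.55 in the GFP libraries (2.73 ± 0.40, adjusted p = 0.00155). Filamin A (Flna), an actin crosslinker, stood at 6.45 and 6.46 in the YAP S127A libraries, against 3.91 and 3.97 in the GFP libraries (2.52 ± 0.37, adjusted p = 0.00141). The galectin gene Lgals1 rose by 2.19 ± 0.38 (adjusted p = 0.00487). In Flna and Anxa2 the libraries of each group lay close together. Both held their calls, while that of Lgals1 was lost without library 2 of the GFP group. The large scaffold protein Ahnak, a partner of Anxa2 that was in none of the lists, stood at 7.86 and 7.92 in the YAP S127A libraries, against 5.56 and 4.29 in the GFP libraries (2.96 ± 0.42, adjusted p = 0.0013). Of 43 cell junction and polarity genes 1 was called. That gene, periplakin (Ppl), which joins keratin filaments to desmosomes, stood at 7.97 and 7.46 in the YAP S127A libraries, against 4.43 and 5.29 in the GFP libraries (2.86 ± 0.34, adjusted p = 0.000372).

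Inflammatory genes set the 2 YAP S127A libraries apart. Over 33 acute phase and cytokine response genes the median was -0.02 above the GFP mean in library 1 and 1.20 in library 2, and 2 were called. The metalloreductase gene Steap4 stood at 8.25 and 10.78 in the YAP S127A libraries, against 7.18 and 7.20 in the GFP libraries (2.33 ± 0.51, adjusted p = 0.0295). Lipocalin 2 (Lcn2), which binds bacterial iron carriers, stood at 7.28 and 9.39 in the YAP S127A libraries, against 5.65 and 6.47 in the GFP libraries (2.27 ± 0.52, adjusted p = 0.0389). Without library 2 of the YAP S127A group these changes were 1.07 and 1.22, and both calls were lost, as they also were without either GFP library. Saa2, a serum amyloid gene, stood at 5.62 and 11.62 in the YAP S127A libraries and at 5.90 and 4.58 in the GFP libraries, and was not called (3.38 ± 1.16, adjusted p = 0.225). For Saa2 library 1 lay within the GFP range and library 2 far above it. The number of called members ranged from 0 to 7 with 1 library left out.

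Tifa, Tnfaip3 and Icam1 were called higher and were in no list. Tifa, an adaptor upstream of NF-kB, stood at 6.35 and 8.43 in the YAP S127A libraries, against 4.55 and 4.45 in the GFP libraries (2.88 ± 0.46, adjusted p = 0.00268). The feedback inhibitor gene Tnfaip3 stood at 5.27 and 5.82 in the YAP S127A libraries, against 3.75 and 3.06 in the GFP libraries (2.14 ± 0.34, adjusted p = 0.00286). The adhesion molecule gene Icam1 stood at 5.60 and 6.38 in the YAP S127A libraries, against 4.26 and 4.48 in the GFP libraries (1.62 ± 0.28, adjusted p = 0.00523). In each, both YAP S127A libraries lay above the GFP libraries and library 2 was the higher. Tifa held its call, while that of Tnfaip3 was lost without library 2 and that of Icam1 without library 1 of the GFP group. Tnfaip3 and Icam1 were picked after their values were seen. Among 33 interferon and MHC class I genes 1 was called, Ifit2 (1.74, lost without either GFP library or library 1 of the YAP S127A group), and the median of 0.01 lay below that of all genes. H2-Q1, H2-Q4 and H2-Q7, called higher outside that list, have near-identical sequences, and reads may be divided between them. These 3 were also named after their values were seen.

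**Figure D3:**
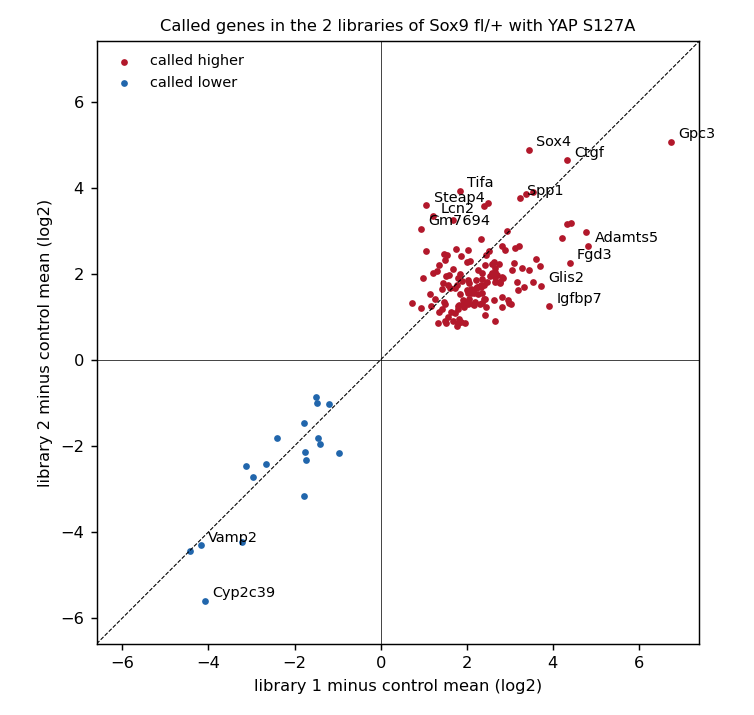
Change of each called gene in library 1 (horizontal axis) and library 2 (vertical axis) of Sox9 fl/+ with YAP S127A, each minus the mean of the 2 wild type GFP libraries (log2), with the dashed line at equal change. Of 150 genes called higher (red), 108 lie on the library 1 side and 42 on the library 2 side, with Steap4, Lcn2 and Tifa above the line and Adamts5, Fgd3, Glis2 and Igfbp7 below it.

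The 2 YAP S127A libraries differed by under 0.5 in 54 of the called genes, by over 1 in 44 and by over 2 in 8. The widest gaps were in Igfbp7, Steap4, Adamts5, Fgd3, Lcn2, Gm7694, Tifa and Glis2, and the narrowest in 2610507I01Rik, Ttc39a, Flna, Tubb6, Crim1, Ahnak, Bcl2 and Cyp39a1. Igfbp7, a secreted binding protein of insulin-like growth factors, stood at 6.38 and 3.72 in the YAP S127A libraries, against 1.76 and 3.18 in the GFP libraries (2.58 ± 0.61, adjusted p = 0.0465), and lost its call without library 1 of either group. Over all compared genes the median SD between 2 libraries was 0.295 in the YAP S127A group and 0.196 in the GFP group.

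Hepatocyte functions gave few calls. With 1.57% of all genes called, 0 calls in lists of these sizes lies near the share over all genes. Liver-enriched transcription factors and nuclear receptors had 0 calls of 42 by limma (4 at an unadjusted p under 0.05) and a median of 0.00, with Hnf4a at 9.44 and 8.98 in the YAP S127A libraries and 10.04 and 9.77 in the GFP libraries (-0.70, adjusted p = 0.458). Secreted plasma proteins had 0 calls of 29 and complement and coagulation factors 0 of 33 (0 and 1 at an unadjusted p under 0.05), with medians of -0.09 and -0.04. Oxidative phosphorylation subunits had 0 calls of 55 (median -0.13), cytosolic ribosomal proteins 0 of 15 (-0.09), and periportal genes 0 of 25 (-0.29), with 1, 0 and 4 at an unadjusted p under 0.05. These medians lay slightly below that of all genes. Perivenous hepatocyte genes had the lowest median of any pathway list, -0.55, with 4 of 27 positive. Of the 27, 2 were called lower (7.41%, against 0.169% of all genes). The perivenous median was -0.31 without library 2 of the GFP group and -0.79 without its library 1.

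The called falls of metabolism came from several pathways. Cyp7a1, on the perivenous and bile acid lists, stood at 6.13 and 4.92 in the YAP S127A libraries, against 6.73 and 7.43 in the GFP libraries (-1.56 ± 0.35, adjusted p = 0.033). The other call on the bile acid list went up, and was that of the oxysterol hydroxylase gene Cyp39a1, at 6.23 and 6.16 in the YAP S127A libraries, against 4.25 and 4.75 in the GFP libraries (1.69 ± 0.26, adjusted p = 0.00208). Csad, which makes the precursor of taurine, stood at 6.91 and 5.53 in the YAP S127A libraries, against 9.30 and 8.08 in the GFP libraries (-2.47 ± 0.46, adjusted p = 0.00872). Cyp39a1 held its call. Cyp7a1 changed by -0.96 without library 2 of the YAP S127A group and -1.21 without library 2 of the GFP group, and lost its call in these fits and without library 1 of the GFP group. Csad lost its call without library 1 of the GFP group (-1.86) or library 2 of the YAP S127A group (-1.78).

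Ugdh and Cryl1 were both called lower. Ugdh, which makes UDP-glucuronate for conjugation, stood at 7.05 and 7.37 in the YAP S127A libraries, against 8.26 and 9.42 in the GFP libraries (-1.63 ± 0.39, adjusted p = 0.0497). Cryl1, a gulonate dehydrogenase, stood at 2.46 and 3.04 in the YAP S127A libraries, against 4.45 and 5.26 in the GFP libraries (-2.11 ± 0.34, adjusted p = 0.00327). Ugdh was the called gene nearest the threshold, and kept its call only without library 1 of the GFP group, while Cryl1 lost its call without library 1 of the YAP S127A group or library 2 of the GFP group. Of 41 cytochrome P450 genes 1 was called, Cyp2c39, at -0.99 and -2.50 in the YAP S127A libraries, against 2.36 and 3.85 in the GFP libraries (-4.85 ± 0.72, adjusted p = 0.00172), and it belongs to a cluster of similar genes. The uncalled Cyp2a4, at 1.38 and 0.72 in the YAP S127A libraries and 0.93 and 9.68 in the GFP libraries, shows how far 1 GFP library could depart from the other (-4.25 ± 1.65, adjusted p = 0.325). The 1 call among 36 conjugating enzymes, the sulfotransferase gene Sult5a1 (-2.84), was lost with any 1 library left out. Of 41 fatty acid oxidation genes 2 were called, both higher, the fatty acid transporter Cd36 (2.34 ± 0.46, adjusted p = 0.0129) and the pantetheinase Vnn1 (1.41 ± 0.34, adjusted p = 0.0472). Both calls were lost without library 1 of either group. The list median was -0.21 and became 0.04 without library 1 of the GFP group.

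**Figure D4:**
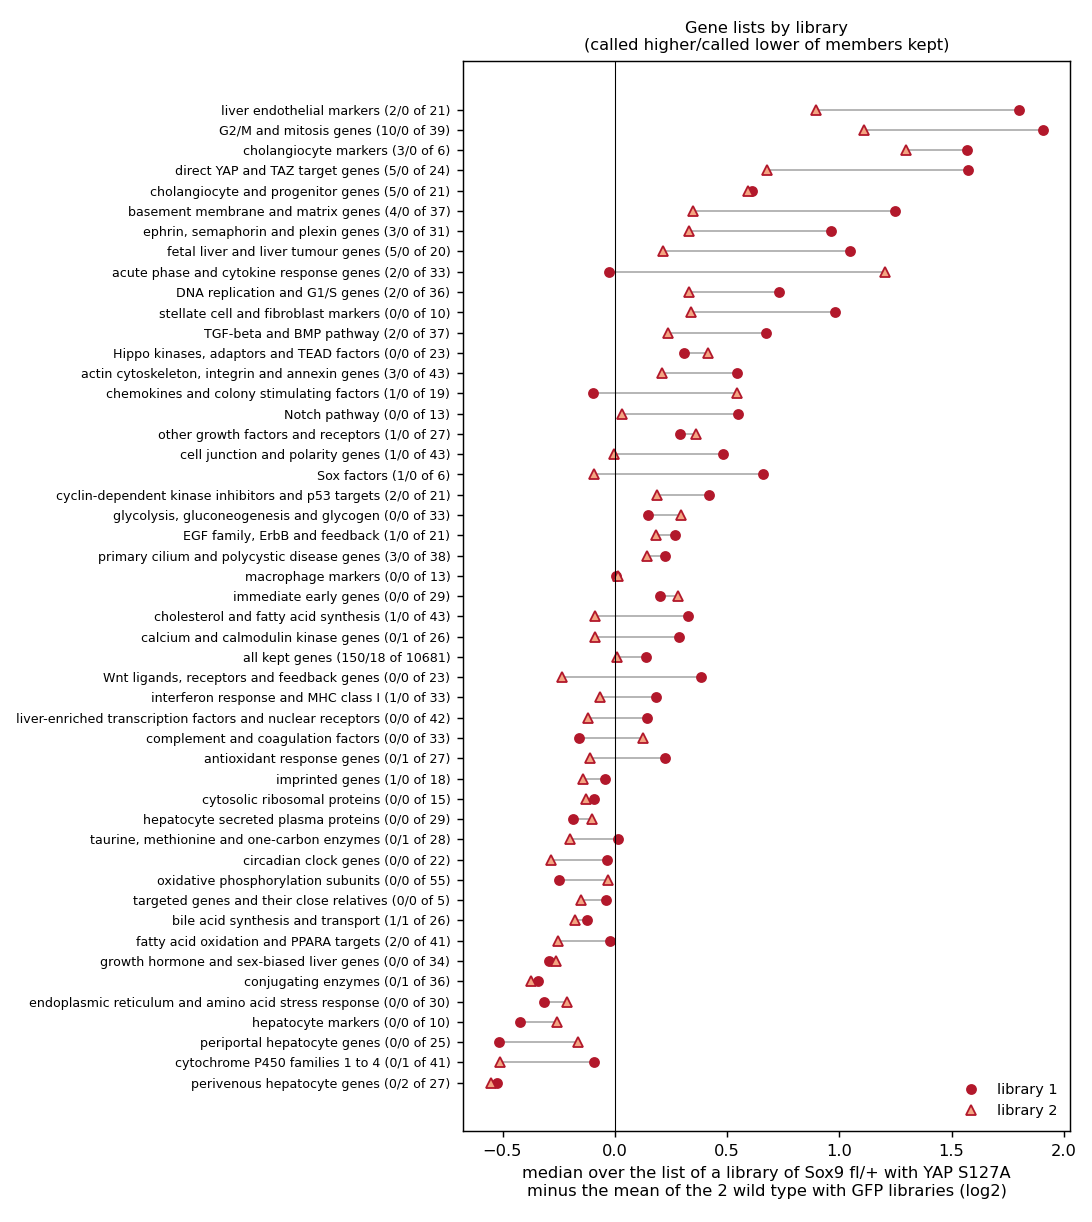
Median over each gene list drawn (those with at least 5 compared genes, 1 list left out) of library 1 (circles) and library 2 (triangles) of Sox9 fl/+ with YAP S127A minus the mean of the 2 wild type GFP libraries (log2), with the counts called higher and lower of the members compared. G2/M and mitosis genes (1.91 and 1.11) and YAP targets (1.57 and 0.68) lie to the right in both libraries, as do liver endothelial markers (1.80 and 0.90) and cholangiocyte markers (1.57 and 1.29), and the acute phase list (-0.02 and 1.20) has the widest gap between them.

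Falls were unevenly placed along the genome. Of the 18, 5 lay on chromosome 11, the chromosome of Sox9 (GRCm38, chromosome 11, 112782224 to 112787760), where 0.577% of 866 compared genes were called lower against 0.169% of all genes. Chromosome 4 followed with 3 of 696 (0.431%). The 5 genes included Camk2b, a calmodulin kinase subunit gene at -106.81 Mb from Sox9, Rnf187 (-53.85 Mb) and 2610507I01Rik (-53.58 Mb). The others were the vesicle fusion gene Vamp2 (-43.69 Mb) and the translation factor gene Eif5a (-42.87 Mb). Called rises on this chromosome numbered 12 (1.39%). All 5 falls lay on the same side of Sox9, as did every called rise but Tsen54 (3.03 Mb) and Myo15b (3.08 Mb). How the compared genes divide between the sides was not counted, so the shared side carries no reading. The place of the falls was noticed in these data and carries no test.

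**Figure D5:**
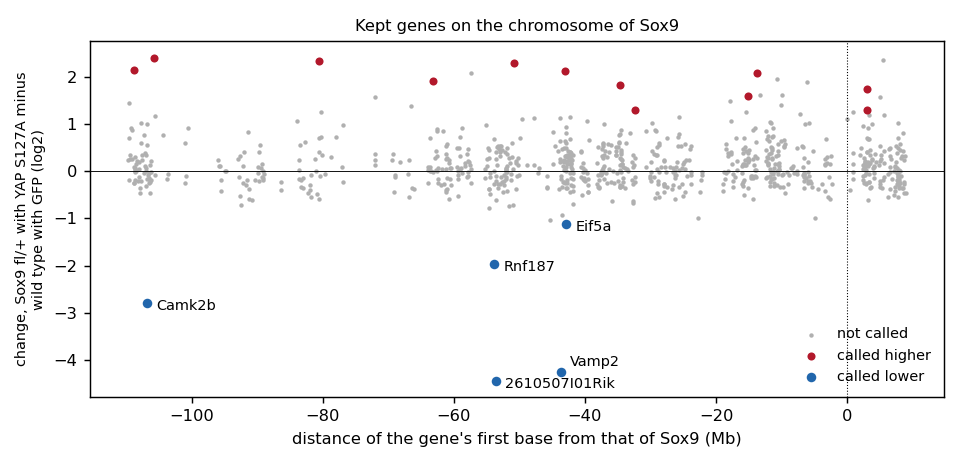
Change (log2, Sox9 fl/+ with YAP S127A minus wild type with GFP) of each compared gene on chromosome 11 against the distance of its first base from that of Sox9 (Mb), with called rises in red and called falls in blue. The 5 falls lie between -106.81 and -42.87 Mb from Sox9, and no called fall lies nearer.

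Vamp2 stood at -0.81 and -0.93 in the YAP S127A libraries, against 3.88 and 2.87 in the GFP libraries (-4.25 ± 0.53, adjusted p = 0.000494). 2610507I01Rik stood at -1.74 in each YAP S127A library, against 3.07 and 2.31 in the GFP libraries (-4.44 ± 0.45, adjusted p = 7.09e-05). Rnf187, a ubiquitin ligase gene, stood at 4.41 and 4.03 in the YAP S127A libraries, against 6.44 and 5.92 in the GFP libraries (-1.96 ± 0.31, adjusted p = 0.00268). The call of Rnf187 was lost without library 1 of the GFP group. All 3 were low in both libraries of Sox9 fl/+ with YAP S127A, but not in Sox9 fl/fl hepatocytes given the same viruses. Set against the Sox9 fl/+ group, the Sox9 fl/fl group was higher in Vamp2 by 4.91 ± 0.53 (adjusted p = 0.000366), in 2610507I01Rik by 4.65 ± 0.45 (adjusted p = 0.000132) and in Rnf187 by 2.13 ± 0.31 (adjusted p = 0.00709). H19 was higher there too, by 2.83 ± 0.41 (adjusted p = 0.00709). These were the 4 genes called both in the comparison with GFP and between the Sox9 genotypes, where 18 genes were called in all (0.169%), 12 higher in Sox9 fl/fl (0.112%) and 6 lower (0.0562%). H19 was thus furthest from the GFP group in Sox9 fl/fl hepatocytes. The other 3 genes had means of 4.04, 2.91 and 6.36 in the Sox9 fl/fl group against 3.38, 2.69 and 6.18 in the GFP group. With 1 library left out, the 18 calls between genotypes became 4 (without library 2 of the Sox9 fl/+ group) to 128 (without its library 1). Camk2b, at 0.87 and 1.54 in the Sox9 fl/+ libraries against 3.98 and 4.02 in the GFP libraries (-2.80 ± 0.36, adjusted p = 0.000512), differed by -0.31 between Sox9 fl/fl and Sox9 fl/+ (adjusted p = 0.936).

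The response was also set against that of Sox9 fl/+ hepatocytes in which YAP was activated through loss of the Hippo kinases (floxed Mst1 and Mst2 on both alleles and the reporter ROSA26-lsl-TdTomato, with AAV2/8-TBG-Cre, compared with the same floxed kinase alleles and reporter, without floxed Sox9, given AAV2/8-TBG-GFP, cells taken after 4 weeks). The means of both control groups were equal in the table to within a median of 0.00849, so the controls had been brought to a common level gene by gene, and the difference of the effects rests on that step. That difference was called for 21 genes (0.197%), 7 of them called against GFP above. It was called for 0 genes without library 2 of the YAP S127A group and for 39 without library 1 of the kinase loss group. Camk2b changed by -2.80 under YAP S127A and by 0.10 after kinase loss, a difference of -2.90 ± 0.50 (adjusted p = 0.0301). Tardbp, the gene of the RNA-binding protein TDP-43, stood at 7.68 and 8.49 in the YAP S127A libraries, against 5.95 and 5.90 in the GFP libraries (2.16 ± 0.30, adjusted p = 0.00111). Its change after kinase loss was -0.11. Zfp933 (2.14), Miip (1.99), Fv1 (1.96) and Gpr157 (2.37), named after their values were seen, were also called higher and lay near Tardbp on chromosome 4. They changed by 0.15, 0.26, 0.15 and 0.14 after kinase loss, and for none of them was the difference of the effects called. Chromosome 4 held 12 called rises of 696 genes (1.72%, against 1.4% of all genes). The shared place of these genes was not tested. Cyp39a1 changed by 1.69 under YAP S127A and -0.46 after kinase loss. Gpc3 rose under YAP S127A and differed by 4.44 after kinase loss, and the difference between these effects was not called (1.46, adjusted p = 0.61).

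Markers of other liver cells were measured beside these results. Hepatocyte markers were abundant in all 4 libraries, summing to 61572.2 and 60692.6 CPM in the YAP S127A libraries and 55548.4 and 78009.4 in the GFP libraries, and 0 of 10 were called by limma (2 at an unadjusted p under 0.05). All 10 had negative changes, with a median of -0.27 and a lowest of -2.18. Liver endothelial markers summed to 272.0 and 163.2 CPM in the YAP S127A libraries and to 47.5 and 124.9 in the GFP libraries. Of 21, 20 had positive changes (median 1.47) and 2 were called, Lyve1 at 3.04 and 3.53 in the YAP S127A libraries, against 0.63 and 0.79 in the GFP libraries (2.57 ± 0.35, adjusted p = 0.000852), and Flt4 (1.90 ± 0.41, adjusted p = 0.0264). Endothelial cells also use the neuropilin, plexin and basement membrane genes described above, and the part of endothelial RNA in those changes was not tested. Macrophage markers (87.5 and 68.3 CPM in the YAP S127A libraries, 40.0 and 107.7 in the GFP libraries) and stellate cell markers (77.5 and 51.7 in the YAP S127A libraries, 43.2 and 64.0 in the GFP libraries) had 0 of 13 and 0 of 10 called by limma (0 in each at an unadjusted p under 0.05). Endothelial, macrophage and stellate markers were all higher in library 2 of the GFP group than in library 1, as were the mitosis genes. Markers of T and NK cells, of B cells and of neutrophils had no member among the compared genes, and Ptprc, the gene of CD45 and also chosen after its values were seen, was under log2 1 in all 4 libraries.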

How the data were processed

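Transcripts of sorted hepatocytes were read with the Ion AmpliSeq mouse transcriptome panel (1 amplicon per gene) on an Ion S5, per the labels' protocols. The authors deposited log2 CPM values. The sources used here name no aligner, counting tool, build or later adjustment. Depth is unknown, so no counting intervals are given. Gene by gene, the deviations from group means are whole multiples of 1 step, with a median rescaling factor of 1.58 over compared genes.

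A gene was kept where 2 or more of 12 libraries reached log2 1. Group means of all 6 groups were fitted with limma 3.58.1 (trended prior variance) in R 4.3.3, with two-sided Benjamini-Hochberg adjusted p-values over all genes. The fit was tested on simulated data. Symbols were matched to GENCODE M21 (16041 of 16116). Gene lists are described by counts and medians. The result of 1 list is not reported here. The genes and lists were chosen with earlier results of these data known. Genes named were the targeted genes, the 20 largest rises and falls with a group mean of at least log2 4, up to 6 called and 3 uncalled members of each list, the 8 called genes with the widest and the 8 with the narrowest gap between YAP S127A libraries, genes called in the other 2 contrasts, genes off in the GFP group and genes nearest the threshold, the exceptions being named as such. Deviations of same-numbered libraries correlated at -0.117 across genes. That value does not show whether the numbers pair the libraries, and the main fit used no pairing. Figures were drawn with matplotlib 3.10.9.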

Additional observations from a re-analysis of the deposited data

Results flagged for a closer look

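In 7 called genes the effect of YAP S127A differed from that of Hippo kinase loss, both in Sox9 fl/+ hepatocytes. The YAP S127A effect is the difference from wild type mice given GFP, and other genetic differences between these mice cannot be told apart from it. A limma test was made of the difference itself (log2, YAP S127A effect minus kinase loss effect). The difference was 2.27 in Tardbp (adjusted p = 0.0438) and 2.15 in Cyp39a1 (adjusted p = 0.0275), where the YAP S127A effect was the higher. It was -2.90 in Camk2b (adjusted p = 0.0301), -3.08 in Tmem51 (adjusted p = 0.0155), -2.24 in Paqr7 (adjusted p = 0.0329), -3.72 in 2610507I01Rik (adjusted p = 0.0275) and -5.28 in Fam171b (adjusted p = 0.00793). Fam171b averaged -2.47 under YAP S127A, against 1.26 in its GFP group, and 2.68 after kinase loss, against 1.13 in its GFP group. Tmem51 averaged 1.40 under YAP S127A, against 3.43 in its GFP group, and 4.45 after kinase loss, against 3.40 in its GFP group. Paqr7, a membrane progestin receptor gene, averaged 2.57 under YAP S127A, against 4.26 in its GFP group, and 4.81 after kinase loss, against 4.26 in its GFP group. Tardbp and Tmem51 both lie on chromosome 4, and Camk2b and 2610507I01Rik are among the falls on chromosome 11. These places were not tested.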

How the results depend on the processing

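The 168 calls (150 higher, 18 lower) became 72 (59 higher) with no filter on low values, 1223 (937 higher, 286 lower) with the deviations before the rescaling and 44 (38 higher, 6 lower) when only the 4 libraries were fitted. With 1 library left out, calls ranged from 92 to 291, rises from 74 to 271 and falls from 13 to 29. The 18 calls between Sox9 fl/fl and Sox9 fl/+ became 5 with no filter, 29 with a pseudocount of 4, 6 with an untrended prior variance, 466 before the rescaling, 9 with 6 libraries, and 4 to 128 with 1 library left out. The 21 calls for the difference from kinase loss became 3, 5 and 3 under the first 3 of those settings, 618 before the rescaling, and 0 to 39 with 1 library left out. With the replicate block there were 205 calls (159 of the 168 kept), 39 between Sox9 genotypes and 35 for the difference from kinase loss. Same-numbered libraries correlated at -0.117 (-0.521 in the kinase experiment), and with the control numbers crossed, a setting added after seeing the data, the block gave 325 calls (273 higher, 52 lower) and 98 for the difference. Without 1 library the remaining library of that group was taken to vary like the other groups. Of the 168 genes, 37 were called under every one of the 16 alternatives that kept the gene, and over called genes and alternatives 1902 results kept their side of the threshold, 778 lost it and 0 changed sign. The median of all genes became -0.049 after quantile normalization and -0.019 with medians equalised. List medians that changed sign included those of cilium genes (-0.045 after quantile normalization) and macrophage markers (-0.0027 with the pseudocount, -0.114 after quantile normalization, and -0.296 to 0.708 with 1 library left out). With 1 library left out, sign also changed for imprinted genes (-0.141 to 0.121), fatty acid oxidation (-0.254 to 0.0415), clock genes (-0.283 to 0.258), conjugating enzymes (-0.451 to 0.0435), taurine and one-carbon enzymes (-0.221 to 0.115) and antioxidant genes (-0.243 to 0.223). It changed as well for Wnt genes (-0.235 to 0.383), Sox factors (-0.0939 to 0.662), acute phase genes (-0.0239 to 1.20) and chemokines (-0.0963 to 0.543). The same held for cholesterol and fatty acid synthesis (-0.087 to 0.327), complement and coagulation (-0.160 to 0.125) and liver-enriched transcription factors (-0.121 to 0.145). Interferon (-0.0644 to 0.182), calcium kinase (-0.0862 to 0.284) and cell junction genes (-0.0038 to 0.482) did so too. The causes of these shifts were not tested.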

Other observations

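Further rises were found in genes outside the lists, named here after their values were seen. The methionine sulfoxide reductase gene Msrb3 stood at 6.64 and 6.30 in the YAP S127A libraries, against 4.06 and 3.43 in the GFP libraries (2.73 ± 0.26, adjusted p = 4.97e-05). Membrane and secreted proteins included the tetraspanin Cd63 (2.41), Mfge8, a bridge between dying cells and phagocytes (2.14), the amyloid precursor App (1.86), the collagen receptor kinase Ddr1 (1.72) and the rhomboid-like protein Rhbdf1 (2.32), which helps release EGF family ligands. Of these, Ddr1 and App lost their calls with library 1 of either group left out, and Cd63, Mfge8 and Rhbdf1 were called in all 4 such fits. The fall in the transferrin receptor gene Tfrc (-1.24 ± 0.27, adjusted p = 0.0295) set 4.17 and 4.65 in the YAP S127A libraries beside 5.61 and 5.70 in the GFP libraries, and its call was lost without either GFP library or library 1 of the YAP S127A group.

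Genes close to the threshold show how little separated calls from the rest. Nrp1 (1.02, adjusted p = 0.0491), Wwc2 of the Hippo pathway (1.07, adjusted p = 0.0495), Pdzk1ip1 (1.78, adjusted p = 0.0491) and Vnn1 (1.41, adjusted p = 0.0472) were just inside it. The glutamate transporter gene Slc1a2, at 3.66 and 5.26 in the YAP S127A libraries and 5.98 and 6.88 in the GFP libraries, lay just outside it (-1.97 ± 0.48, adjusted p = 0.0522).

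Of 44 pathway lists, 29 had a called member and 15 had none. Among those not described above, the antioxidant list had 1 call of 27, the fall of Ugdh (-1.63). Hmox1 of that list, which breaks down heme, was not called, at 4.73 and 6.93 in the YAP S127A libraries and 4.69 and 4.33 in the GFP libraries (1.32, adjusted p = 0.301). Endoplasmic reticulum and amino acid stress genes had 0 calls of 30 by limma (3 at an unadjusted p under 0.05), with 6 positive changes and a median of -0.25. Immediate early genes had 0 of 29 (3 at an unadjusted p under 0.05), clock genes 0 of 22 (1) and glycolysis and glycogen genes 0 of 33 (4), with medians of 0.16, -0.10 and 0.25. Cholesterol and fatty acid synthesis genes had 1 call of 43, Fads3, and a median of 0.15.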
